A study of Mus musculus with 9 samples.

Results

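The transcripts of 39 genes of the lysosome, of autophagy and of the MiT/TFE transcription factors were followed in 9 RNA libraries of cultured mouse stem cells. The genes were taken by symbol from the count table, and all 39 were found among its 54532 Ensembl genes. They comprise 3 MiT/TFE factors, 4 lysosomal membrane proteins, 16 lysosomal hydrolases and cofactors, 5 subunits of the lysosomal proton pump, 6 autophagy genes and 5 genes of the folliculin and Rag proteins. The list was drawn up because Tfeb stood higher in ALSCs than in AFSCs in these same libraries. The values and counts of all members in that comparison are therefore given as a description, with no p-value, and nothing is read from them.

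All cells carried the background Sv129 x GOF/GFP F1, and 3 libraries were made of each of 3 cell types. AFSCs came from blastocysts, were kept in Activin A with bFGF, are labelled as similar to epiblast stem cells (EpiSCs), and were at passage 15 to 20. ALSCs were AFSCs moved for several passages to Activin A and leukaemia inhibitory factor (LIF), at passage 20 to 25; the protocol prints this recipe under the name of the other medium. ABSCs were AFSCs moved to Activin A and BMP4, are labelled as similar to trophoblast stem cells, and were at passage 25 to 30. Activin A was thus present in every group, and passage cannot be told apart from cell type. The protocol names an RNA kit of its own for ALSCs, so in every comparison with ALSCs the kit cannot be told apart from cell type. The labels do not say whether libraries of one group came from separate cultures, so p-values measure the spread between these libraries, which may be technical.

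Lysosomes are acidic organelles that break down proteins, lipids and glycans with soluble hydrolases, and a proton pump in their membrane keeps the pH low. TFEB, TFE3 and MITF are related helix-loop-helix factors that bind E-box sequences in the promoters of lysosomal and autophagy genes. When amino acids are plentiful, Rag GTPases on the lysosome bring these factors to the kinase mTORC1, whose phosphorylation holds them in the cytoplasm, and folliculin takes part in that step. In embryonic stem cells, folliculin and TFE3 are known for their part in the exit from the naive state.

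RefSeq promoter windows (build GRCm38.p6, 250 bases before to 50 after a start site) were at hand for 35 of the 39 genes. The E-box CACGTG, which reads the same on both strands, was present in the window of 13 of the 35 (37.1%), against 2187 of 27025 genes with a window (8.09%). Its longer form TCACGTGA, which contains the E-box, was in 6 of the 35 (17.1%) and in 304 of all genes (1.12%). The full CLEAR element, the longer form with a G before and a C after it, was in 0 of the 35 and in 100 of all genes (0.370%). TCATGTGA, the M-box, was found on either strand in 2 of the 35, Gla and Tpp1 (5.71%), and in 310 of all genes (1.15%). The members are textbook lysosome genes, so these shares describe the list and were not tested.

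Shown first are E-box stretches of 5 members, each lying before the RefSeq start site, with every searched motif in capitals. Atp6v1a carries the longer form. Lamp1 carries 2 plain E-boxes in the stretch shown. Glb1, Ctsl and Sgsh, hydrolase genes that differed between libraries below, carry 1 each. The stretches lie at chr16:44139358-44139417 (minus strand), chr8:13159074-13159131 (plus strand), chr9:114401004-114401061 (plus strand), chr13:64370725-64370770 (minus strand) and chr11:119355511-119355565 (minus strand). GENCODE M21 also annotates a part of the Ctsl and Sgsh stretches as exon.
Atp6v1a: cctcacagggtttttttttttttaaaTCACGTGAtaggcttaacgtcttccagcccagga
Lamp1: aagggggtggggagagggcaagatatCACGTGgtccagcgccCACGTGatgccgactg
Glb1: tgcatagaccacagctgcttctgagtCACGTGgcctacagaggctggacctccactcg
Ctsl: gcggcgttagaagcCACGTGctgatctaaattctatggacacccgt
Sgsh: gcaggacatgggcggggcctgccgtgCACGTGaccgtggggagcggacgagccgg

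Gusb and Hexa, the hydrolase genes with the largest differences between ALSCs and ABSCs, had none of the searched motifs in their windows. The 250 bases before their start sites are shown for comparison, at chr5:130003050-130003299 (minus strand) and chr9:59539290-59539539 (plus strand), in lower case throughout because no motif was matched.
Gusb: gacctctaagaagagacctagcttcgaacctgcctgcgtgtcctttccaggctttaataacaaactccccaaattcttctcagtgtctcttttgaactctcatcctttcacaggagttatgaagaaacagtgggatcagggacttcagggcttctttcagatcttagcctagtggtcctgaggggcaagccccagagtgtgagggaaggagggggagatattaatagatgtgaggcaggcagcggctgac
Hexa: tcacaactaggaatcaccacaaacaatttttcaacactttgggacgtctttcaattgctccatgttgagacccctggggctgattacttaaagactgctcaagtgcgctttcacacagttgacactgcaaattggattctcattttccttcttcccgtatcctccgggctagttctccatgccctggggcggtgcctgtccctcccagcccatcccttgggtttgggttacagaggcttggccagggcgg

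The libraries held 18978651 to 21578737 counts in named genes. Levels are given in CPM, counts scaled by library size and composition. A rise, a fall or a call stands for an adjusted p under 0.05 in edgeR's quasi-likelihood test over the 16178 genes tested. Of the 10 pluripotent cell markers, 9 stood at 1 CPM or more in each group. The mean of Pou5f1 was 1073 CPM in AFSCs, 933 CPM in ALSCs and 1225 CPM in ABSCs. Trophoblast markers at 1 CPM or more numbered 2 in AFSCs, 3 in ALSCs and 5 in ABSCs. The sum of the 10 trophoblast markers was 287 to 377 CPM in ABSCs and 71.5 to 188 CPM in the other libraries. The ABSC sum was mostly Hand1, at 187 to 244 CPM in ABSCs and at most 2.52 CPM elsewhere. Cdx2 was at 0.834 to 6.42 CPM in ABSCs. From the same list Elf5 and Gata3 had a mean under 1 CPM in every group, ABSCs included. Tpbpa, Prl3d1 and Prl3b1, which mark differentiated trophoblast, had 0 counts in every library. Libraries numbered 1 stood apart from numbers 2 and 3 in every group: 37.0% of all genes differed by that number, and what the number stands for is not given in the sources used here. Results are therefore also given with the number as a block and without the libraries numbered 1 where that changes them.

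Of the 39 members, 38 passed the filter on low counts. Ctsc, the gene of cathepsin C, did not, at 0.0515 to 0.551 CPM against a floor of 3 counts of 0.138 to 0.157 CPM. Per kilobase of gene length, the most abundant member of each class was Psap of the hydrolases and cofactors (72.9 CPM per kb), Lamp1 of the membrane proteins (67.3), Sqstm1 of autophagy (51.2) and Atp6v1a of the pump (31.9), with Rragd (15.5) and Tfe3 (15.4) leading the 2 remaining classes. In bulk RNA, fewer cells that express a gene and less RNA per cell cannot be told apart.

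The MiT/TFE factors differed from one another in level and in pattern. Tfeb (chromosome 17, 47737030 to 47792419) stood at 1.65, 1.46 and 1.45 CPM in the AFSC libraries 1 to 3, at 14.8, 12.4 and 12.0 CPM in ALSCs and at 2.75, 1.57 and 2.02 CPM in ABSCs. Every ALSC library was above every library of the other groups, and ABSCs overlapped AFSCs. The fitted level in ALSCs was 8.58 times that in AFSCs (log2 fold change 3.10, SE 0.22), and ABSCs stood 2.62 below ALSCs on the log2 scale (-2.62, SE 0.21). These values chose the gene and are given with no p-value. Between ABSCs and AFSCs Tfeb did not pass (log2 fold change 0.48, SE 0.23, edgeR adjusted p = 0.288).

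Tfe3 (chromosome X, 7762560 to 7775202), the factor tied to the exit from the naive state, was by far the most abundant of the family. Its level was 131, 139 and 139 CPM in AFSCs, 113, 138 and 129 CPM in ALSCs and 159, 171 and 160.0 CPM in ABSCs. All ABSC libraries were above all libraries of the other groups, which overlapped each other. Tfe3 was higher in ABSCs than in ALSCs (log2 fold change 0.36, SE 0.08, edgeR adjusted p = 0.0127), a call lost without ABSC 2 (adjusted p = 0.0626, in a range of 1.91e-05 to 0.0626 over the alternatives). Against AFSCs it did not pass (0.26, SE 0.08, edgeR adjusted p = 0.0654), but did with the library number as a block (edgeR adjusted p = 0.00250), in a range of 0.000235 to 0.241 over the alternatives.

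Mitf (chromosome 6, 97807052 to 98021349), best known from pigment cells and osteoclasts, was scarce. It stood at 2.16, 2.45 and 3.33 CPM in AFSCs, 1.65, 1.15 and 1.07 CPM in ALSCs and 0.638, 0.470 and 0.556 CPM in ABSCs, and the 3 groups did not overlap. Mitf fell in ABSCs against AFSCs (log2 fold change -2.24, SE 0.30, edgeR adjusted p = 0.00143), and leaving out any 1 of the 9 libraries kept the call. Against ALSCs it also fell (-1.21, SE 0.31, edgeR adjusted p = 0.0345), but this call was lost without AFSC 2, ALSC 1, ALSC 2, ABSC 2 or ABSC 3 (adjusted p 0.0146 to 0.133 over the alternatives). ALSCs stood 1.03 below AFSCs on the log2 scale (-1.03, SE 0.27). The fourth family gene, Tfec, had 3 counts in all 9 libraries together and was not tested.

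Taking the 4 factors per kilobase, Tfeb made up 1.75% ± 0.190 (SD, n = 3) of their summed level in AFSCs, 14.3% ± 2.55 in ALSCs and 2.07% ± 0.633 in ABSCs. Tfe3 made up 80.9% to 98.1% in every library, so it remained the main MiT/TFE transcript where Tfeb was highest. The summed level was 15.4 ± 0.550 CPM per kb in AFSCs, 16.2 ± 1.06 in ALSCs and 18.1 ± 0.621 in ABSCs. ALSC and AFSC libraries overlapped in this sum, at 15.1 to 17.3 and 14.8 to 15.8 CPM per kb. These sums count transcripts and carry no information on where the proteins are in the cell.

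**Figure D1:**
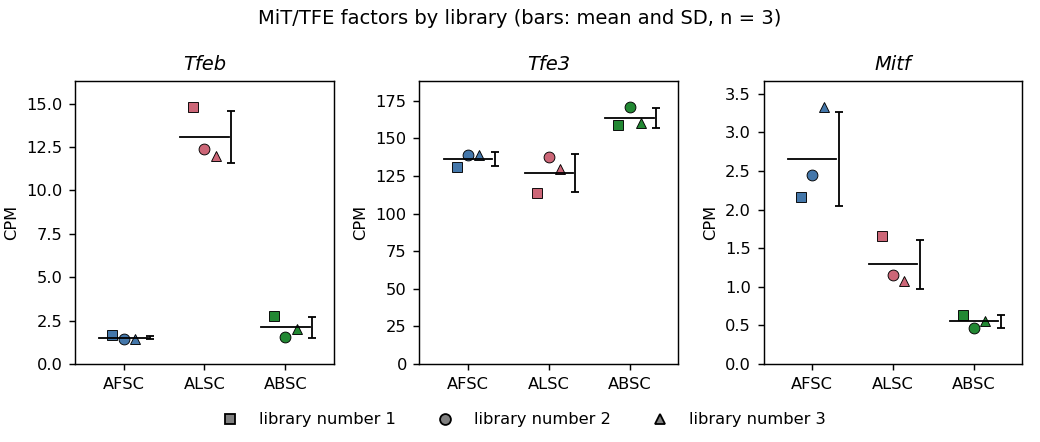
CPM (y axis) of Tfeb, Tfe3 and Mitf in each library of the 3 cell types (x axis), with the group mean (line) and SD (bar, n = 3) and the library number as the marker. Tfeb is at 12.0 to 14.8 CPM in ALSCs and at most 2.75 CPM elsewhere, Tfe3 is highest in ABSCs, and the 3 groups of Mitf do not overlap.

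Between ALSCs and ABSCs, hydrolases and cofactors made up 6 of the 7 members called outside the MiT/TFE family. The classes were not tested against each other. Over all members, 10 of 38 were called in ABSCs against ALSCs, 1 higher and 9 lower, where 11.0% of all genes were called, 5.41% higher and 5.56% lower. Without Tfeb, 9 of 37 were called, and without the 3 factors 7 of 35, all lower in ABSCs. The median log2 fold change was -0.17 over the 38 members and -0.01 over all genes tested. Of the 15 hydrolases and cofactors tested, 6 fell and 0 rose, 14 had a negative value, and their median was -0.26. With the library number as a block the members called were 17, or 16 of 37 without Tfeb, where 28.5% of all genes were called. Among the 17 were 9 hydrolases and cofactors, 2 of 6 autophagy genes and 2 of 5 folliculin and Rag genes. Leaving out ABSC 2 left 4 members called and leaving out ABSC 3 left 5. The ABSC and ALSC libraries did not overlap for 17 of the 38 members, 3 higher and 14 lower in ABSCs (44.7%). That count includes Tfeb, whose level in ALSCs put it on the list. Of all genes 28.9% did not overlap, 13.9% higher and 15.1% lower. The 17 members were 8 of 15 hydrolases and cofactors (53.3%), 3 of 5 folliculin and Rag genes (60.0%), 2 of 5 pump subunits (40.0%), Ulk1 and the 3 MiT/TFE factors.

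Gusb, which encodes beta-glucuronidase (chromosome 5, 129989011 to 130003049), stood at 10.4, 9.15 and 7.93 CPM in AFSCs, 20.0, 18.8 and 18.2 CPM in ALSCs and 11.5, 7.99 and 8.59 CPM in ABSCs. All 3 ALSC libraries were above the other 6, which overlapped. Gusb was lower in ABSCs than in ALSCs (log2 fold change -1.02, SE 0.16, edgeR adjusted p = 0.00314), with a value of 0.03 (SE 0.16, edgeR adjusted p = 0.951) between ABSCs and AFSCs. ALSCs stood at 2.07 times the AFSC level (1.05, SE 0.16).

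Hexa, the alpha subunit of beta-hexosaminidase (chromosome 9, 59539540 to 59565109), was likewise highest in ALSCs. It stood at 4.58, 4.11 and 5.16 CPM in AFSCs, 10.3, 8.71 and 8.70 CPM in ALSCs and 5.64, 3.76 and 3.64 CPM in ABSCs, and again only the ALSC libraries were set apart. The fold change of ABSCs against ALSCs was -1.09 on the log2 scale (SE 0.20, edgeR adjusted p = 0.00715), and that of ABSCs against AFSCs was -0.09 (SE 0.20, edgeR adjusted p = 0.891). ALSCs stood at 2.00 times the AFSC level (log2 fold change 1.00, SE 0.20).

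Smaller differences were seen for other hydrolases and cofactors. Ctsl, the protease cathepsin L (chromosome 13, 64359337 to 64370890), was at 88.2, 82.0 and 83.2 CPM in AFSCs, 109, 104 and 108 CPM in ALSCs and 88.9, 77.6 and 79.7 CPM in ABSCs. It fell in ABSCs against ALSCs (log2 fold change -0.39, SE 0.07, edgeR adjusted p = 0.00546), and ALSCs again lay above both other groups without overlap. Psap, the precursor of the saposins that help lipid-degrading enzymes (chromosome 10, 60277627 to 60302597), was at 198, 194 and 189 CPM in AFSCs, 237, 211 and 216 CPM in ALSCs and 190.0, 183 and 182 CPM in ABSCs. Its fall in ABSCs against ALSCs was -0.26 on the log2 scale (SE 0.06, edgeR adjusted p = 0.0202). Glb1, which encodes beta-galactosidase (chromosome 9, 114401076 to 114474898) and overlaps Tmppe, was at 11.4, 13.6 and 13.0 CPM in AFSCs, 18.3, 15.9 and 14.8 CPM in ALSCs and 11.4, 11.4 and 10.6 CPM in ABSCs. It fell by 0.56 on the log2 scale (SE 0.12, edgeR adjusted p = 0.0178). The protease gene Ctsb, which overlaps Fdft1, fell by 0.28 (SE 0.08, edgeR adjusted p = 0.0448). The calls of Gusb, Hexa and Ctsl were kept without any 1 of the 9 libraries; those of Glb1 and Psap were lost without ABSC 2 or ABSC 3, and that of Ctsb in 7 of the 9 such fits.

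**Figure D2:**
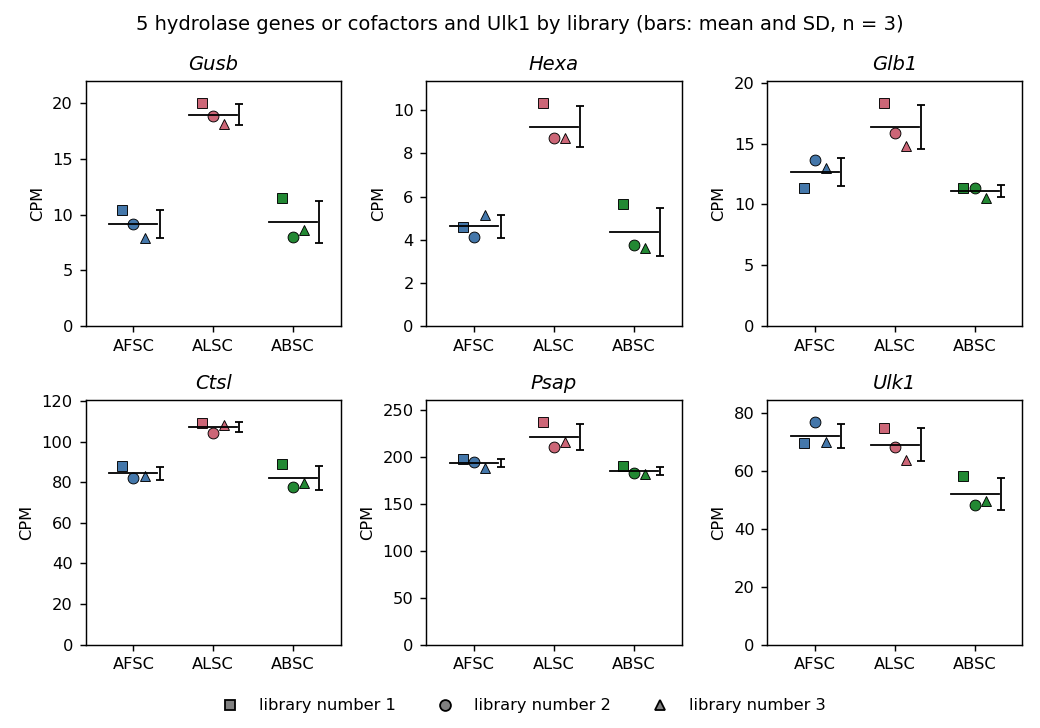
CPM (y axis) of Gusb, Hexa, Glb1, Ctsl, Psap and Ulk1 in each library (x axis: cell type; marker: library number), with the mean (line) and SD (bar, n = 3). For the 5 hydrolases and cofactors all 3 ALSC libraries lie above all other libraries, while Ulk1 is lowest in ABSCs. The 5 are shown because they were called lower in ABSCs than in ALSCs, so that part of the pattern is no further result. Their place above AFSCs is a description.

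Between ABSCs and AFSCs the share of members called was near that of all genes. Of 38 members 2 fell and 0 rose, Mitf and Ulk1, where 7.98% of all genes were called, 3.98% as higher and the rest as lower, and the median log2 fold change was -0.02 against 0.00 over all genes. For the 15 hydrolases and cofactors the log2 fold changes ran from -0.19 for Glb1 to 0.26 for Naglu. Of these 0 passed edgeR's adjusted threshold, 1 had an unadjusted p under 0.05, and DESeq2 called 0. The block brought the members called to 7, of which 5 rose and 2 fell, where it called 19.4% of all genes, 9.58% higher and 9.78% lower; of the hydrolases and cofactors it called 0. Libraries of ABSCs and AFSCs did not overlap for 12 of the 38 members, 6 in each direction (31.6%), against 27.4% of all genes, 13.9% higher and 13.5% lower. With libraries 2 and 3 alone 13 of 38 members (34.2%) were called, 5 higher and 8 lower, where 28.5% of the 16224 genes then tested were called, 14.5% higher and 13.9% lower. These shares lie close to the background and are no result about the members as a group. Without AFSC 2, ABSC 2 or ABSC 3 the count of members was 1, and without ALSC 1 or ABSC 1 it was 4.

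In ALSCs against AFSCs, the comparison that put Tfeb on the list, 6 of 38 members were past the threshold as a description, 5 higher and 1 lower, where 7.04% of all genes were, 3.54% higher and 3.50% lower. They were Tfeb, Mitf, Gusb, Hexa, Ctsl and the pump gene Atp6v1b2. Without AFSC 2 or AFSC 3 the count was 2, Tfeb and Gusb, and without ALSC 3 it was 3. The block gave 16 of 38, where it called 22.2% of all genes. The libraries did not overlap for 18 members, 15 higher and 3 lower in ALSCs, where 28.5% of all genes did not overlap, 14.7% higher and 13.8% lower. The median log2 fold change was 0.13 over all members, 0.25 over the 15 hydrolases and cofactors and 0.00 over all genes. Sgsh, a sulfatase of heparan sulfate breakdown, stood at 1.07 on the log2 scale (SE 0.33), Naglu, of the same pathway, at 0.88 (SE 0.62), and the rest of the members outside the MiT/TFE family, other than Gusb and Hexa, lay between -0.20 for Rragc and 0.67 for Wipi1. The value of Tfeb was 3.10. Its rise in this comparison put it on the list, so its place above the other members is not a result. Of the others Sgsh had the highest value. ABSCs and AFSCs were both compared with the same ALSC libraries.

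**Figure D3:**
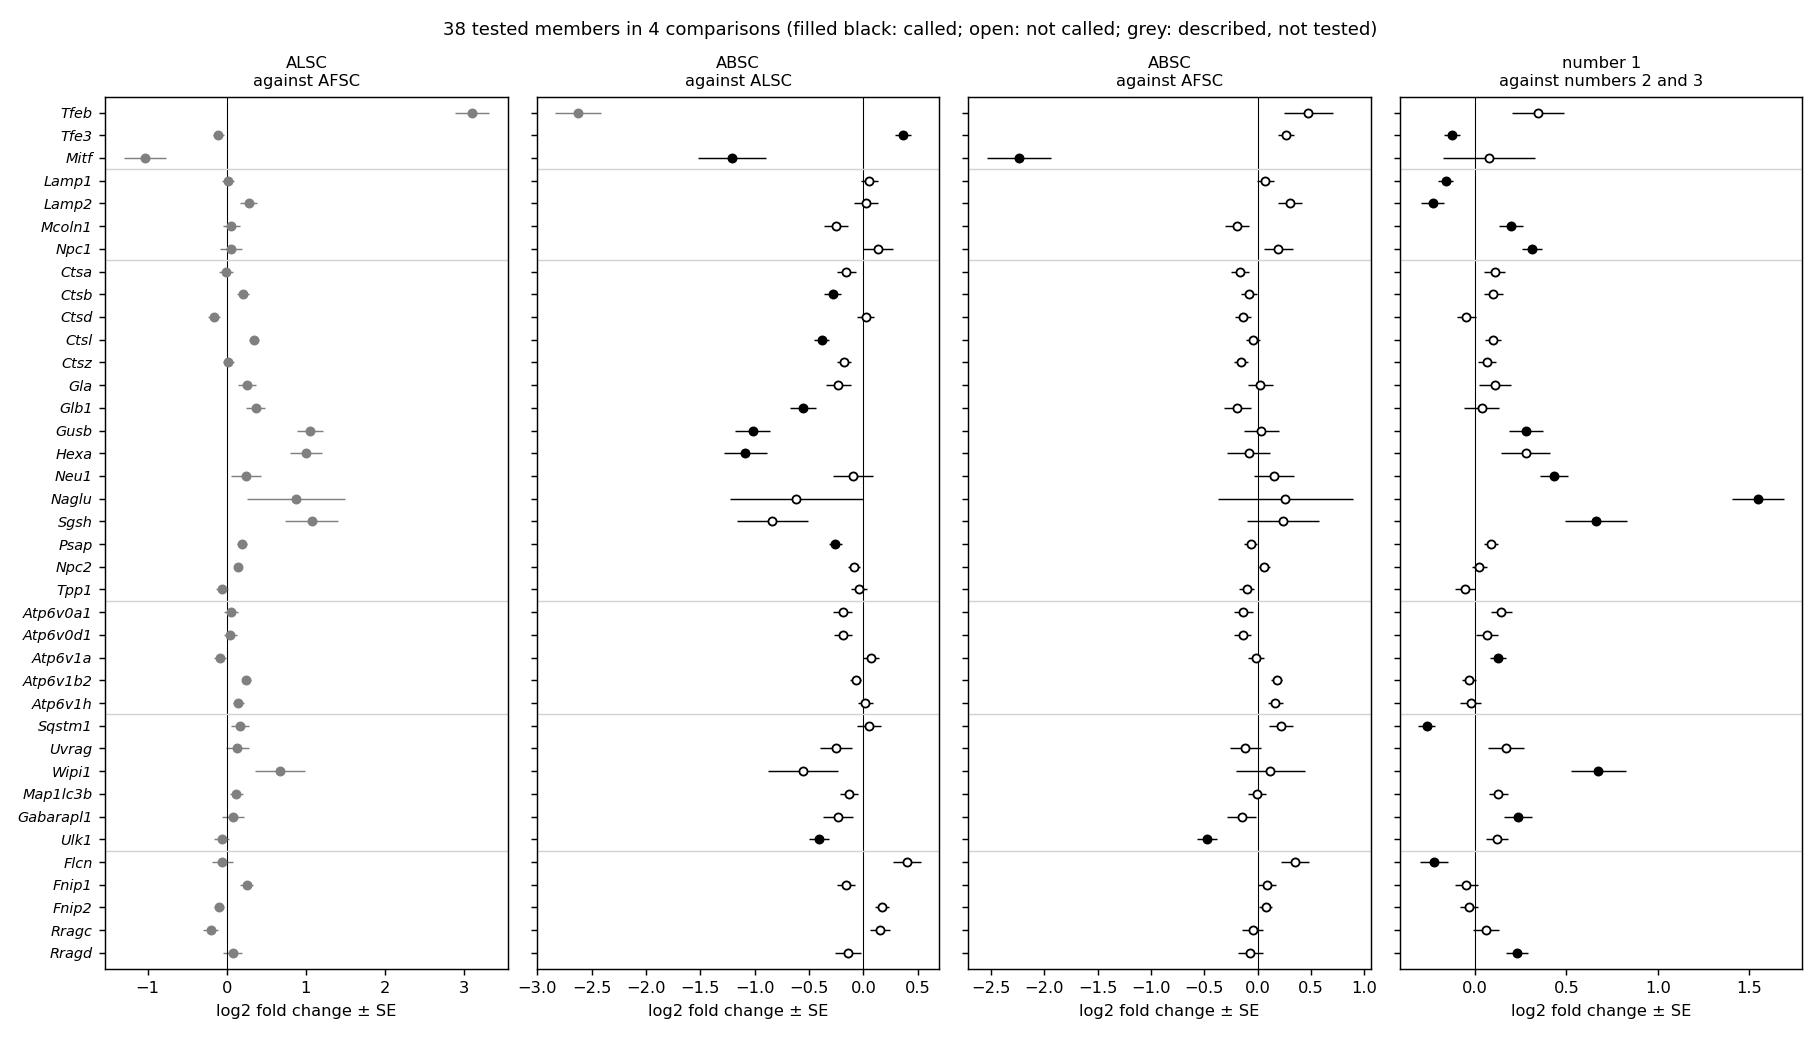
Log2 fold change with its SE (x axis) of the 38 tested members (y axis, grouped by role) in 4 comparisons. Filled black points passed edgeR's adjusted threshold, open points did not, and grey points are described only. In ABSCs against ALSCs 14 of 15 hydrolases and cofactors lie below 0, while in ABSCs against AFSCs they lie between -0.19 and 0.26.

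Between ABSCs and ALSCs, members with and without an E-box had similar medians, a difference that was not tested. The median log2 fold change was -0.19 for the 13 tested members with CACGTG in the promoter window. It was -0.18 for the 21 tested members with a window that lacked it. Npc1, Ctsb, Atp6v1b2 and Atp6v1h had no window and are in neither set. Of the 13 with the E-box 2 fell and 0 rose, and of the 21 without it 6 fell and 1 rose. The 21 without the E-box include the 3 MiT/TFE factors. Tfeb, which is described only, and Mitf are among the 6 that fell, and Tfe3 is the 1 that rose. In ALSCs against AFSCs, given as values alone, the medians were 0.06 and 0.12. The 6 members with TCACGTGA, Atp6v1a among them, ranged from -0.16 to 0.25 in that comparison. These are descriptions of letters in a window, not of binding.

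None of the 4 membrane proteins was called between cell types without the block. Lamp1, the most abundant lysosomal membrane glycoprotein gene here, was at 163, 181 and 184 CPM in AFSCs, 164, 177 and 194 CPM in ALSCs and 174, 191 and 190.5 CPM in ABSCs, and the groups overlapped. It overlaps Grtp1 on the genome. Lamp2, its relative, was at 25.9, 30.7 and 33.04 CPM in AFSCs, 34.0, 36.5 and 38.1 CPM in ALSCs and 32.5, 38.3 and 39.5 CPM in ABSCs, with AFSCs below ALSCs and overlapping ABSCs. Lamp2, Mcoln1, a calcium channel, and Npc1, a cholesterol exporter, had log2 fold changes of -0.25 to 0.30 over the 3 comparisons. Of the 4 genes 0 were called by edgeR or by DESeq2 in each of the 3, with 1 at an unadjusted p under 0.05 each time. With the block 1 was called in each, Lamp2 in both comparisons with AFSCs and Mcoln1 in ABSCs against ALSCs.

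Among the proton pump subunits, Atp6v1b2 and Atp6v1h stood lower in every AFSC library than in every other library. Atp6v1b2, a subunit of the part that splits ATP, was at 138, 139.5 and 139.6 CPM in AFSCs, 163, 164 and 169 CPM in ALSCs and 154, 164 and 154 CPM in ABSCs. AFSCs lay below both other groups. Its log2 fold change was 0.25 (SE 0.05) in ALSCs and 0.18 (SE 0.05, edgeR adjusted p = 0.0673) in ABSCs, each against AFSCs. With the block the latter was called (edgeR adjusted p = 0.0166). Atp6v1a, the catalytic subunit and the most abundant per kilobase, was at 207, 187 and 199 CPM in AFSCs, 190.3, 189 and 179 CPM in ALSCs and 217, 185 and 183 CPM in ABSCs, and all groups overlapped. The other 4 subunits, Atp6v0a1, Atp6v0d1, Atp6v1a and Atp6v1h, lay between -0.19 and 0.17 in the 3 comparisons. In ABSCs edgeR called 0 of the 5 against either group, with 2 (against AFSCs) and 1 (against ALSCs) at an unadjusted p under 0.05, and DESeq2 called 1 and 0.

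Among the autophagy members, Ulk1 was lowest in ABSCs. The gene encodes the kinase that starts autophagy (chromosome 5, 110784488 to 110810097). It stood at 69.5, 76.9 and 69.8 CPM in AFSCs, 74.9, 68.2 and 63.6 CPM in ALSCs and 58.2, 48.0 and 49.4 CPM in ABSCs. Every ABSC library was below every other library. Ulk1 fell against AFSCs (log2 fold change -0.47, SE 0.09, edgeR adjusted p = 0.0118) and against ALSCs (-0.41, SE 0.09, edgeR adjusted p = 0.0205). The first call was lost without AFSC 2, ABSC 2 or ABSC 3, with adjusted p up to 0.0620, and the second without ALSC 1, ALSC 2, ABSC 2 or ABSC 3, with adjusted p up to 0.0971.

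The other 5 autophagy members did not pass in comparisons of cell types without the block. They are Sqstm1, the cargo receptor p62, Uvrag, a partner of Beclin 1, Wipi1, which binds a lipid of the forming autophagosome, and the ATG8 proteins Map1lc3b and Gabarapl1. Sqstm1, which overlaps Mrnip, stood at 0.22 on the log2 scale in ABSCs against AFSCs (SE 0.11, edgeR adjusted p = 0.318; 0.0113 with the block). Wipi1 had the widest range, from -0.56 in ABSCs against ALSCs to 0.67 in ALSCs against AFSCs, with an SE of 0.32 in each. With the block Wipi1 fell in ABSCs against ALSCs (-0.54, SE 0.19, edgeR adjusted p = 0.0427), and in ALSCs against AFSCs it and Sqstm1 were past the threshold.

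Genes of the folliculin and Rag proteins, which hold the MiT/TFE factors in check, were not called between cell types without the block. Flcn, the gene of folliculin (chromosome 11, 59791408 to 59810016), was at 33.9, 33.5 and 33.8 CPM in AFSCs, 29.5, 32.3 and 35.7 CPM in ALSCs and 34.0, 49.7 and 44.8 CPM in ABSCs. ABSC 1 thus lay with the other groups and ABSC 2 and ABSC 3 above them. Flcn did not pass in ABSCs against ALSCs (log2 fold change 0.40, SE 0.13, edgeR adjusted p = 0.0817) or against AFSCs (0.35, SE 0.13, edgeR adjusted p = 0.161), but did with the block (edgeR adjusted p = 0.00700 and 0.0223). Rragd, the most abundant of the 5 per kilobase, was at 82.4, 82.7 and 75.5 CPM in AFSCs, 91.3, 82.1 and 80.5 CPM in ALSCs and 93.4, 66.2 and 69.8 CPM in ABSCs, and all groups overlapped. The folliculin partners Fnip1 and Fnip2 and the GTPases Rragc and Rragd lay between -0.20 and 0.25 in the 3 comparisons. Of the 5 genes edgeR called 0 in each comparison of cell types, with 1 or 2 at an unadjusted p under 0.05, and DESeq2 called 1 in ABSCs against ALSCs and 0 in the others. With the block Fnip2 also rose in ABSCs against ALSCs (0.17, edgeR adjusted p = 0.0407), and Fnip1 was past the threshold in ALSCs against AFSCs (0.25).

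Other genes of the pathway were counted from lists of 173 tested genes. In ABSCs against ALSCs 8 of the 173 rose and 12 fell (11.6%), and in ABSCs against AFSCs 6 rose and 4 fell (5.78%). Both shares are near those of all genes, 11.0% and 7.98%, so they are no result about these genes as a group. Of 44 other hydrolases and their helpers, 6 were lower and 1 higher in ABSCs than in ALSCs. Gm2a, the activator protein that works with hexosaminidase, stood at 4.41 ± 1.20 CPM in ABSCs, 10.5 ± 2.16 CPM in ALSCs and 7.07 ± 0.901 CPM in AFSCs (SD, n = 3; ABSCs against ALSCs -1.24, edgeR adjusted p = 0.00649). Idua, alpha-L-iduronidase, which overlaps Dgkq and Slc26a1, stood at 1.59 ± 0.492, 3.78 ± 0.767 and 1.38 ± 0.299 CPM in the same order (-1.24, edgeR adjusted p = 0.0203). Against AFSCs, 2 of the 44 rose in ABSCs and 2 fell, Ctsf (-0.92, edgeR adjusted p = 0.0182) and Man2b1, lysosomal alpha-mannosidase (-0.84, edgeR adjusted p = 0.00308).

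Of 36 other membrane proteins, 5 were lower and 1 higher in ABSCs than in ALSCs (16.7%). Of all genes 11.0% were called, 5.41% higher and 5.56% lower. Laptm4b stood at 34.8 ± 5.46 CPM in ABSCs, 83.3 ± 13.1 CPM in ALSCs and 32.4 ± 3.29 CPM in AFSCs (SD, n = 3; ABSCs against ALSCs -1.26, edgeR adjusted p = 0.000554). Mfsd12, which overlaps Fzr1, was at 6.89 ± 2.10, 15.5 ± 0.969 and 5.83 ± 1.57 CPM (-1.17, edgeR adjusted p = 0.0107). Both genes were named for the size of their change in ABSCs against ALSCs, so their high level in ALSCs is no further result. Against AFSCs, edgeR called 0 of the 36 in ABSCs, where 7.98% of all genes were called. Of the 36, 10 had an unadjusted p under 0.05, and DESeq2 called 5.

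As a background for the next lists, 7.98% of all genes were called in ABSCs against AFSCs and 11.0% against ALSCs. Of 14 other pump subunits, 2 rose in ABSCs against either group (14.3%). They were Tcirg1, at 34.8 ± 0.592 CPM in ABSCs against 24.9 ± 0.581 CPM in AFSCs (SD, n = 3; log2 fold change 0.48, edgeR adjusted p = 0.00741), and Atp6v1d (0.25, edgeR adjusted p = 0.0375). Of 43 other autophagy genes 1 rose and 1 fell in ABSCs against AFSCs (4.65%). Gabarap, another ATG8 gene, was at 47.0 ± 1.34 CPM in ABSCs and 33.3 ± 0.944 CPM in AFSCs (0.50, edgeR adjusted p = 0.00428), and Atg9b, which overlaps Nos3, fell to 7.87 ± 1.07 from 22.6 ± 1.84 CPM (-1.52, edgeR adjusted p = 0.000664). Ulk2, the relative of Ulk1, was lower in ABSCs than in ALSCs (-1.39, edgeR adjusted p = 0.0140). Of 36 nutrient sensing genes 1 rose and 1 fell in ABSCs against AFSCs (5.56%). They were the sestrin gene Sesn3 (0.76, edgeR adjusted p = 0.000549) and the GTPase gene Rragb (-0.34, edgeR adjusted p = 0.0279). In ABSCs against ALSCs 4 of the 36 rose (11.1%), among them Ppp3ca, a subunit of the phosphatase calcineurin (0.47, edgeR adjusted p = 0.0205).

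In ALSCs against AFSCs, given here as values alone, 14 of the 173 other genes were past the threshold, 10 higher and 4 lower (8.09%), near the 7.04% of all genes. Laptm4b stood at 1.36 on the log2 scale, Idua at 1.46, Mfsd12 at 1.42 and Aga, which releases sugars from asparagine, at 0.90. Atg9b stood at -1.16, Sesn2, which overlaps Gm12981, at -0.40 and Tsc2, an inhibitor of mTORC1 signalling that overlaps Pkd1 on the genome, at -0.26. Of the pump subunits edgeR had 0 past the threshold, with 3 at an unadjusted p under 0.05, and DESeq2 had 0. Visceral endoderm is a cell type rich in lysosomes: of 12 endoderm markers 5 were at 1 CPM or more in AFSCs, 6 in ALSCs and 3 in ABSCs. The sum of the 12 was 84.3 to 88.6 CPM in AFSCs, 69.2 to 80.7 CPM in ALSCs and 131 to 173 CPM in ABSCs, mostly Lrp2. Lrp2 alone made up 47.1 to 63.4 CPM in ALSCs, and Gata4 reached 1 CPM in ALSCs and in no other group. The part of endoderm cells in the hydrolase levels was not tested. Ttr had 0 counts in every library and Afp had reads in 1 library alone. Of the 6 macrophage markers 2, 1 and 1 reached 1 CPM in AFSCs, ALSCs and ABSCs, with a sum of 6.47 to 10.9 CPM, and the 10 fibroblast markers summed to 11.2 to 27.0 CPM.

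The library number also set members apart. Libraries numbered 1 were compared with numbers 2 and 3 across the 3 cell types, with the cell type in the fit. Of 38 members 10 were higher and 5 lower in libraries numbered 1, 15 in all (39.5%), where 37.0% of all genes were called, 19.3% higher and 17.7% lower. A share this close to the background is no result about the members as a group. Number 1 lay outside numbers 2 and 3 in all 3 cell types for 15 members (39.5%), 11 highest and 4 lowest, against 41.7% of all genes, 21.5% highest and 20.2% lowest.

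Naglu, the alpha-N-acetylglucosaminidase of heparan sulfate breakdown (chromosome 11, 101070012 to 101077672), differed most. Libraries 1, 2 and 3 stood at 6.74, 2.45 and 3.28 CPM in AFSCs, 13.2, 5.06 and 4.48 CPM in ALSCs and 9.76, 2.35 and 2.73 CPM in ABSCs. Number 1 was the highest in each cell type (log2 fold change 1.55, SE 0.14, edgeR adjusted p = 3.28e-07). Sgsh, the sulfatase of the same pathway, was at 2.99, 2.78 and 2.39 CPM in AFSCs, 7.20, 4.90 and 5.04 CPM in ALSCs and 5.15, 2.14 and 2.27 CPM in ABSCs (0.66, SE 0.17, edgeR adjusted p = 0.00526). The number 1 library of AFSCs was close to the others, unlike those of ALSCs and ABSCs. Neu1, a sialidase (chromosome 17, 34931253 to 34935953), was at 19.2, 13.6 and 13.9 CPM in AFSCs, 22.4, 16.7 and 16.2 CPM in ALSCs and 20.3, 16.9 and 14.6 CPM in ABSCs (0.43, SE 0.08, edgeR adjusted p = 0.000296).

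Wipi1 was at 5.97, 6.42 and 5.44 CPM in AFSCs, 14.3, 7.56 and 6.56 CPM in ALSCs and 9.27, 5.07 and 5.00 CPM in ABSCs (log2 fold change 0.67, SE 0.15, edgeR adjusted p = 0.00249), so its number 1 libraries were high in ALSCs and ABSCs and not in AFSCs. Sqstm1 went the other way, at 139, 169 and 162 CPM in AFSCs, 163, 178 and 187 CPM in ALSCs and 152, 199.8 and 196 CPM in ABSCs (-0.26, SE 0.05, edgeR adjusted p = 0.000216). All 4 membrane proteins were called. Npc1, which overlaps Rmc1 and Gm15956, was at 75.2, 69.4 and 71.2 CPM in AFSCs, 91.5, 66.0 and 67.2 CPM in ALSCs and 96.9, 74.4 and 75.5 CPM in ABSCs, with number 1 the highest in each. Npc1 (0.31) and Mcoln1 (0.20) were higher and Lamp1 (-0.16) and Lamp2 (-0.23) lower. Tfeb stood at 0.34 (SE 0.14, edgeR adjusted p = 0.0646) and was the highest in the number 1 library of each cell type. Tfe3 was lower (-0.12, SE 0.05, edgeR adjusted p = 0.0400), as was Flcn (-0.22). Gusb (0.28), Gabarapl1 (0.24), Rragd (0.23) and Atp6v1a (0.13) were higher. The calls of Naglu, Neu1, Npc1, Sqstm1, Lamp1 and Lamp2 were kept without any 1 of the 9 libraries. That of Tfe3 was lost without AFSC 2, AFSC 3, ALSC 1, ALSC 2 or ABSC 2 (adjusted p up to 0.246). Those of Sgsh and Rragd were lost without ABSC 1 (adjusted p = 0.0993 and 0.142) and that of Wipi1 without ALSC 1 (adjusted p = 0.0514). That of Mcoln1 was lost without AFSC 3, ABSC 1 or ABSC 2 (adjusted p up to 0.216), and that of Gabarapl1 without ALSC 1, ALSC 2, ABSC 1 or ABSC 3 (up to 0.180). Gusb lost its call without AFSC 1, AFSC 3 or any 1 ABSC library (adjusted p up to 0.198), and Atp6v1a without AFSC 2, ALSC 3 or any 1 ABSC library (up to 0.279). Flcn lost it without ALSC 1, ALSC 3 or any 1 ABSC library (up to 0.397) and with the block (edgeR adjusted p = 0.0514).

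**Figure D4:**
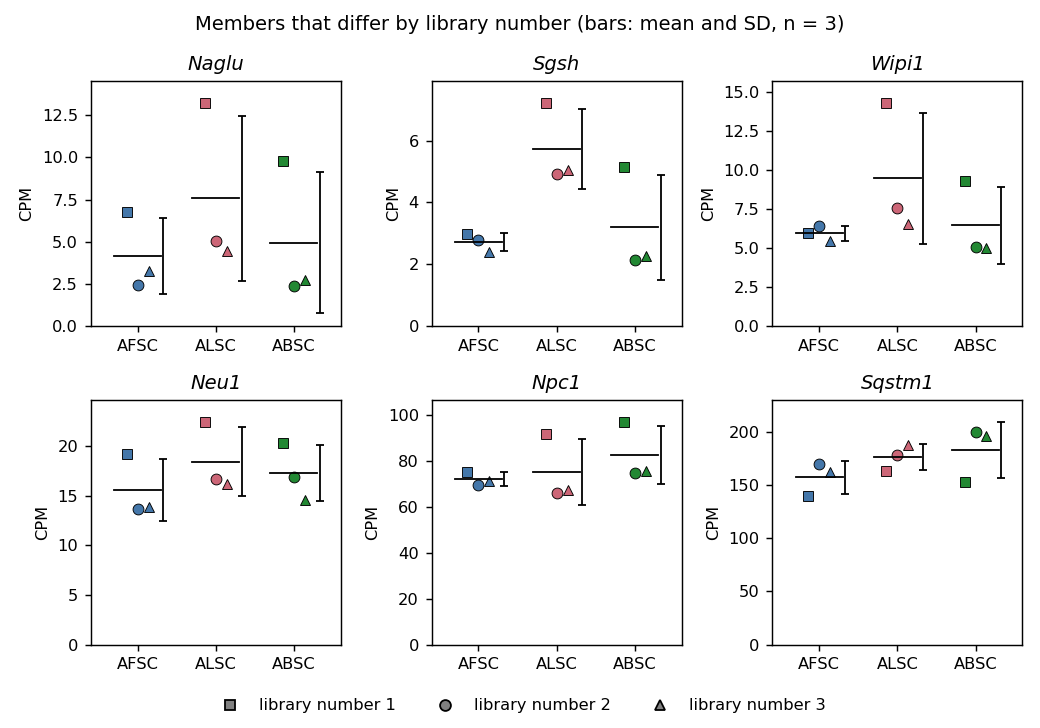
CPM (y axis) of Naglu, Sgsh, Wipi1, Neu1, Npc1 and Sqstm1 in each library (x axis: cell type; marker: library number), with the mean (line) and SD (bar, n = 3). The number 1 library is the highest for Naglu, Sgsh, Neu1 and Npc1 in all 3 cell types, for Wipi1 in ALSCs and ABSCs, and is the lowest for Sqstm1 in all 3.

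Of the 173 other pathway genes 45 were higher and 26 lower in libraries numbered 1 (41.0%). Of all genes 37.0% were called, 19.3% higher and 17.7% lower, so this share is near the background and no result about the pathway. Ulk2 (log2 fold change 0.70) and Atg16l2 (0.61), which overlaps Fchsd2, led the autophagy list. Of the other lists Ppp3cc (0.67), Ppt2 (0.52), Atp6v0e2 (0.33) and Atp6v0b (0.16) were higher, and Abcb9 (-0.91), Slc30a2 (-0.82), Nagpa (-0.55) and Mlst8 (-0.50) were lower.

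Beside these members, 3 stress-responsive genes chosen after their values were seen moved with the number. Chac1 stood at 39.2 CPM in AFSC 1 against 8.12 and 8.87 CPM in AFSC 2 and AFSC 3, Ddit4, an inhibitor of mTORC1 signalling, at 560 CPM against 185 and 181 CPM, and Vegfa at 64.9 CPM against 26.5 and 23.1 CPM. The number 1 libraries of ALSCs and ABSCs were likewise the highest of their groups for all 3 genes. Their part in the differences by number was not tested. For Gusb, Hexa, Glb1, Ctsl, Psap and Tfeb the ALSC libraries 2 and 3 were each above all AFSC and ABSC libraries numbered 2 and 3. That follows from the lack of overlap over all libraries given above, so it is no further check on the number. With the libraries numbered 1 left out, 22 of the 38 members were called in ABSCs against ALSCs, 4 higher and 18 lower (57.9%). Among them were all 10 called with every library, Tfeb included. Of the 16224 genes tested in that fit 32.2% were called, 16.8% higher and 15.4% lower. Its p-values measure the spread between numbers 2 and 3 of each group alone, which may be technical. The higher count is therefore no stronger result.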

How the data were processed

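RNA was measured in 9 libraries, 3 each of AFSCs, ALSCs and ABSCs. The deposited values are raw counts of reads per gene; per the submitters' processing notes, the authors used HISAT2 2.0.5 and featureCounts 1.5.0-p3, and the notes name the build mm9. Gene coordinates in the deposited table matched GENCODE M21 (GRCm38) for 53548 of 54495 shared IDs, and for 38 of the 39 members, so they are read as GRCm38. The 346 loci with no Ensembl ID (0.208% to 0.227% of counts) were left out. The gene length column, as deposited by the authors, was used for levels per kilobase; how it was derived is not given in the sources used here. Per the labels' protocols the library kit does not mark strand, so reads of overlapping genes cannot be told apart; 11 tested members overlap another tested gene.

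In R 4.3.3, edgeR 4.0.16 kept genes by filterByExpr (minimum count 10, minimum total 15), scaled by TMM and fitted all 9 libraries with group means (robust quasi-likelihood, 6 residual degrees of freedom, biological coefficient of variation 0.147). P-values are 2-sided and adjusted by Benjamini-Hochberg over 16178 genes; SE is the absolute log2 fold change over the square root of F. Each floor of 3 counts covers counting error only. The scripts were tested on simulated data. Libraries with the same number correlated in their deviations from group means at 0.197 to 0.554, which pairs them by the threshold used (0.1), although numbers 2 and 3 also correlated with each other (0.221 to 0.273). The fit with the number as a block was therefore run beside the one without. Alternatives were other scalings, DESeq2 1.42.0, other filters, fewer libraries and the block.

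Named with full values are the MiT/TFE factors and, per role and comparison, up to 3 called members with the largest change at 1 CPM or more, or else the most abundant; from each list of other genes, up to 2. Others are named beside a count. The members, lists and tests were chosen with earlier results of these data known.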

Additional observations from a re-analysis of the deposited data

How the results depend on the processing

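The replicate block (the library number in the fit) raised the counts of calls: to 3132 genes (7 members) in ABSCs against AFSCs, 4605 (17) in ABSCs against ALSCs and 3590 (16) in ALSCs against AFSCs, from 1291 (2), 1775 (10) and 1139 (6); member counts in ALSCs against AFSCs are a description. All members called without the block were called with it in these 3 comparisons. Libraries numbered 2 and 3 alone gave 4622 (13), 5225 (22) and 4122 (12). In ABSCs against AFSCs DESeq2 called 4 members and a minimum count of 50 left 1. Fitting ABSCs and ALSCs alone gave 1041 genes and 6 members. Leaving out 1 library at a time gave 667 to 1723 genes (1 to 4 members), 846 to 2337 (4 to 14) and 345 to 1522 (2 to 7) in the same order. For libraries numbered 1 against numbers 2 and 3 it gave 4482 to 6243 genes (10 to 18 members), from 5983 (15). For the difference by number, Mitf went from 0.08 to -0.21 without ALSC 1, with a highest value of 0.48 without AFSC 1, and was called in none of these fits; no other member followed through the alternatives (those called, and the MiT/TFE factors) changed direction. With library size as the only scaling, the share of called genes that were higher was 35.2% in place of 49.3% in ABSCs against ALSCs and 62.5% in place of 52.2% for number 1. Under that scaling 15 of 15 hydrolases and cofactors were below 0 in ABSCs against ALSCs, with 6 called as before. The depth limits statements on Mitf, with 9 to 71 reads per library, and Tfec.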
